A study of Mus musculus with 4 samples.

Results

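The genes described here are 42 subunits of ATP-dependent chromatin remodelling complexes other than the BAF60 (Smarcd) subunits, out of 20701 gene symbols measured. They were picked by gene name, as known components of the BAF and PBAF, ISWI, CHD, INO80 and SWR1 complexes, and the rule uses no measured value, although the list was drawn up with earlier results of these data known. For each gene, the transcript with the highest mean of RPKM (reads per kilobase, scaled by the total counted in each library) multiplied by length was kept. Of the 42 genes, 39 passed a filter of a mean of 0.5 RPKM over the 4 libraries and were tested, whereas Actl6b, Bcl11a and Bcl11b lay below it.

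RNA-Seq was performed on cardiac progenitor cells (CPCs) obtained by directed differentiation of mouse embryonic stem cells (ESCs) to day 5 and sorted for Nkx2-5–GFP, a fluorescent reporter driven by the cardiac transcription factor gene Nkx2-5. All cells carried the Tg(Nkx2-5-EmGFP) transgene on the E14 ESC background, and all ESC pools had been transduced and selected with puromycin. The 2 control libraries came from cells with the pLKO control vector, and the 2 Baf60c KD libraries came from cells with a short hairpin RNA (shRNA) against Baf60c, encoded by Smarcd3. The comparison asks which transcripts change when CPCs are made with little Baf60c. The sources used here do not give which shRNA or which ESC pool stands behind each library. The p-values therefore refer to the scatter between libraries alone, and some of that scatter may be technical.

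Chromatin remodellers use ATP to slide, evict or exchange nucleosomes and thereby set which DNA is accessible to transcription factors. The mammalian SWI/SNF family is built around either Brg1 (Smarca4) or Brm (Smarca2), joined by core subunits and by subunits that differ between canonical BAF, PBAF and noncanonical BAF. Many positions in these complexes can be filled by any of several paralogs, and the choice of paralog, including the heart-enriched Baf60c, differs between cell types. In the embryonic heart, Brg1 dosage and PBAF subunits are known to matter for normal morphogenesis, and Chd7 is the gene mutated in human CHARGE syndrome, which includes heart defects.

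Smarcd3 itself was measured at 173.9 and 166.8 RPKM in control and at 46.4 and 46.3 RPKM in Baf60c KD. Both Baf60c KD libraries therefore lay far below both control libraries, with a mean of 170.4 ± 5.01 against 46.4 ± 0.0535 RPKM (SD, n = 2) and a log2 fold change of −1.85. Of the 4545 exon bases of the Smarcd3 gene model, 54.3% are shared with Chpf2 on the opposite strand, and strand was not used in counting. The counted transcript has 1710 bases, and how much of it is shared was not worked out.

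The libraries held 22064092 to 30398452 reads summed over transcripts. Of 11371 genes tested with limma, 6175 (54.3%) passed a Benjamini-Hochberg adjusted p of 0.05, 36.1% of the tested genes being higher and 18.2% lower in Baf60c KD. With median-ratio scaling in place of the deposited scaling to the library total, 51.2% passed, 25.8% higher and 25.4% lower, so that the share of calls in the higher direction moved from 66.4% to 50.3%. All 8 cardiac progenitor markers checked were expressed and passed the test, 2 higher and 6 lower, with Nkx2-5 at 25.6 and 25.4 RPKM in control and at 19.6 and 17.0 RPKM in Baf60c KD. Less RNA of a gene per cell and fewer cells that express it cannot be told apart in such bulk libraries.

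Genes of other cell types and of dividing cells also moved between the groups. Of 12 dividing-cell genes, 10 were higher and 0 lower, and their summed level was 469.2 and 469.7 RPKM in control and 630.6 and 624.4 RPKM in Baf60c KD. Epicardial genes were higher in 4 of the 5 tested, with sums of 27.8 and 27.9 against 42.1 and 41.2 RPKM, and blood genes in 3 of 4, with sums of 5.98 and 6.37 against 20.9 and 21.9 RPKM. Fibroblast genes were higher in 4 and lower in 1 of 5 (sums of 54.5 and 55.8 against 67.4 and 69.0 RPKM), and endothelial genes higher in 4 and lower in 3 of 7 (38.6 and 36.8 against 59.2 and 61.4 RPKM). Of 12 neural genes 5 reached the filter, Sox2 being higher (0.140 and 0.0736 against 1.43 and 1.70 RPKM) and Pax6 and Stmn2 lower, with list sums of 7.51 and 7.27 against 6.56 and 6.89 RPKM. Of 8 pluripotency genes 1 reached it, Tdgf1, which was lower (38.9 and 42.4 against 26.4 and 25.1 RPKM). Tdgf1 made up most of the list sums of 39.8 and 43.0 against 28.0 and 27.0 RPKM. Below the filter and with few reads, Pou5f1 (0.160 and 0.135 against 0.458 and 0.440 RPKM), Nanog, Dppa5a and Utf1 were higher without overlap. Zfp42 and Esrrb overlapped between the groups. Sox2, Wt1, Tcf21 and Postn had control means of 0.107, 0.337, 0.450 and 0.0700 RPKM. They reached the filter only through the Baf60c KD libraries, so the neural, epicardial and fibroblast counts depend on that filter. The markers Ptprc of blood, Neurod1 of neurons and Dppa3 of pluripotent cells had no reads in any library. The part of these shifts in the values of the remodeller genes was not tested.

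With all 4 libraries the remodeller subunits were called about as often as other genes. Without Baf60c KD replicate 1 they were called less often than other genes. The test called 19 of the 39 tested members (48.7%, beside 54.3% of all genes), 12 higher and 7 lower, and their log2 fold changes ranged from −0.57 to 0.30 with a median of 0.05, beside a median of 0.07 over all genes. An absolute log2 fold change under 0.3 was found for 34 of the 39 members and for 74.5% of all genes. With median-ratio scaling, the split was 5 higher and 12 lower and the median −0.03. Over all genes that scaling gave 25.8% higher and 25.4% lower and a median of 0.002. The groups did not overlap in 21 members that were higher and 13 that were lower, as in 77.4% of all genes (49.6% higher and 27.8% lower). The study's own thresholds were an absolute log2 fold change over 0.58 and an unadjusted p under 0.05, which the study applied to DESeq2 values. Applied here to the limma fit on log2(RPKM + 1), they were passed by 8.36% of all genes and by 0 members. Phf10 (−0.572) and Chd7 (−0.566) came closest. In the same limma fit 22 of the 39 members had an unadjusted p under 0.05, and voom on recovered reads placed 2 members past the study's thresholds. The matching shares of all genes were not worked out, but 54.3% of all genes passed even the adjusted p of 0.05. Without Baf60c KD replicate 1 the count called was 11, 7 higher and 4 lower, beside 5359 of all genes, 3555 higher and 1804 lower.

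**Figure D1:**
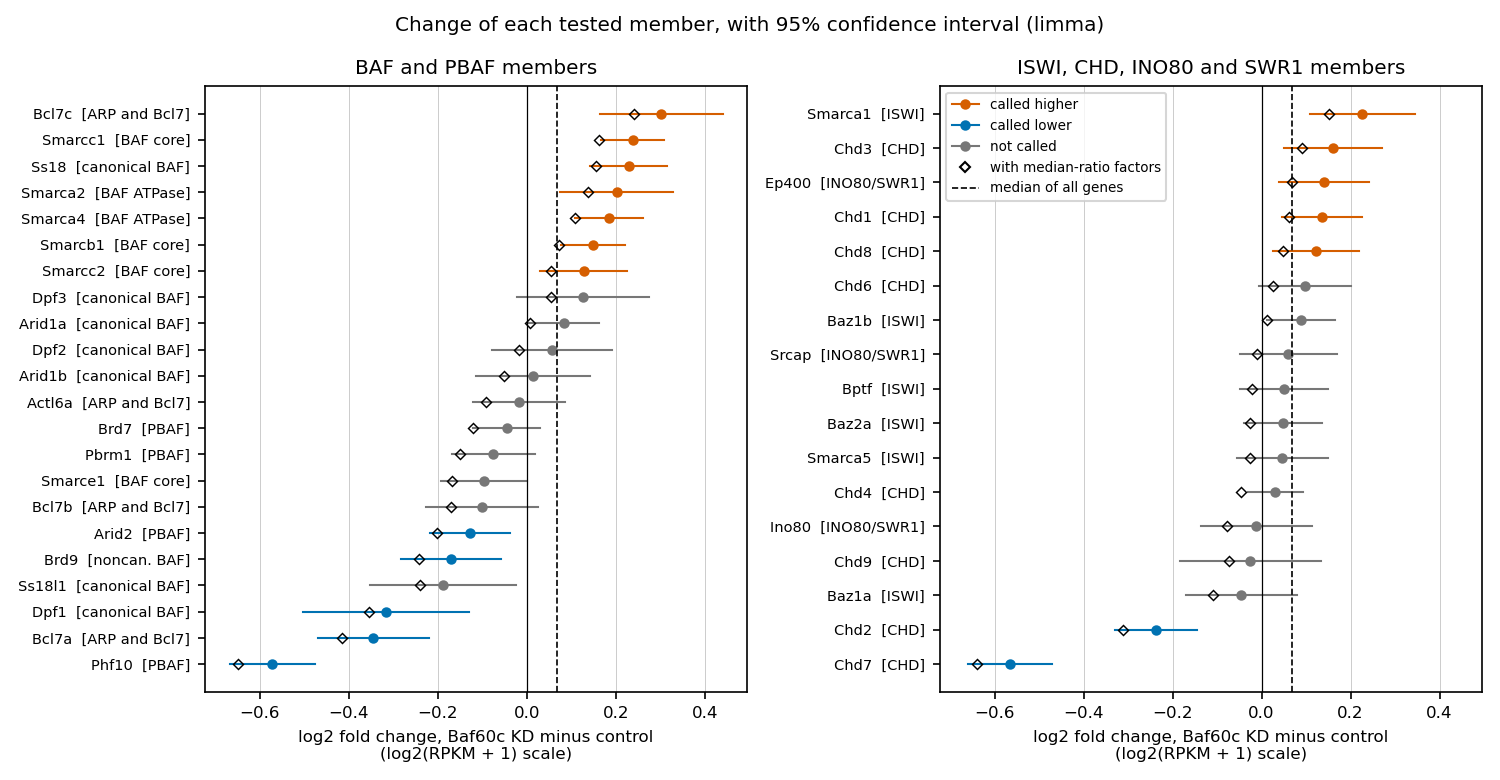
Log2 fold change (Baf60c KD minus control, log2(RPKM + 1) scale) of each tested member, with its 95% confidence interval from limma, for BAF and PBAF members (left) and for ISWI, CHD, INO80 and SWR1 members (right). Diamonds give the value with median-ratio scaling and the dashed line the median of all genes (0.07); Phf10 and Chd7 lie apart from the rest, at −0.57 each, and 34 of the 39 members lie within 0.3 of 0, as do 74.5% of all genes.

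The levels spanned a wide range. In control, Phf10 had the highest level of all members at 90.4 ± 5.53 RPKM, followed by Chd4 at 85.3 ± 0.191 and by Smarcb1 at 44.0 ± 0.801 RPKM (SD, n = 2). The control ranges of Phf10 (86.5 to 94.3 RPKM) and Chd4 (85.2 to 85.4 RPKM) lay next to each other without overlap, and after knockdown their order was reversed, with Chd4 at 87.2 ± 0.664 and Phf10 at 60.5 ± 1.70 RPKM. Chd9 at 1.70 ± 0.0399 and Dpf1 at 1.24 ± 0.00383 RPKM had the lowest control levels of the tested members.

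**Figure D2:**
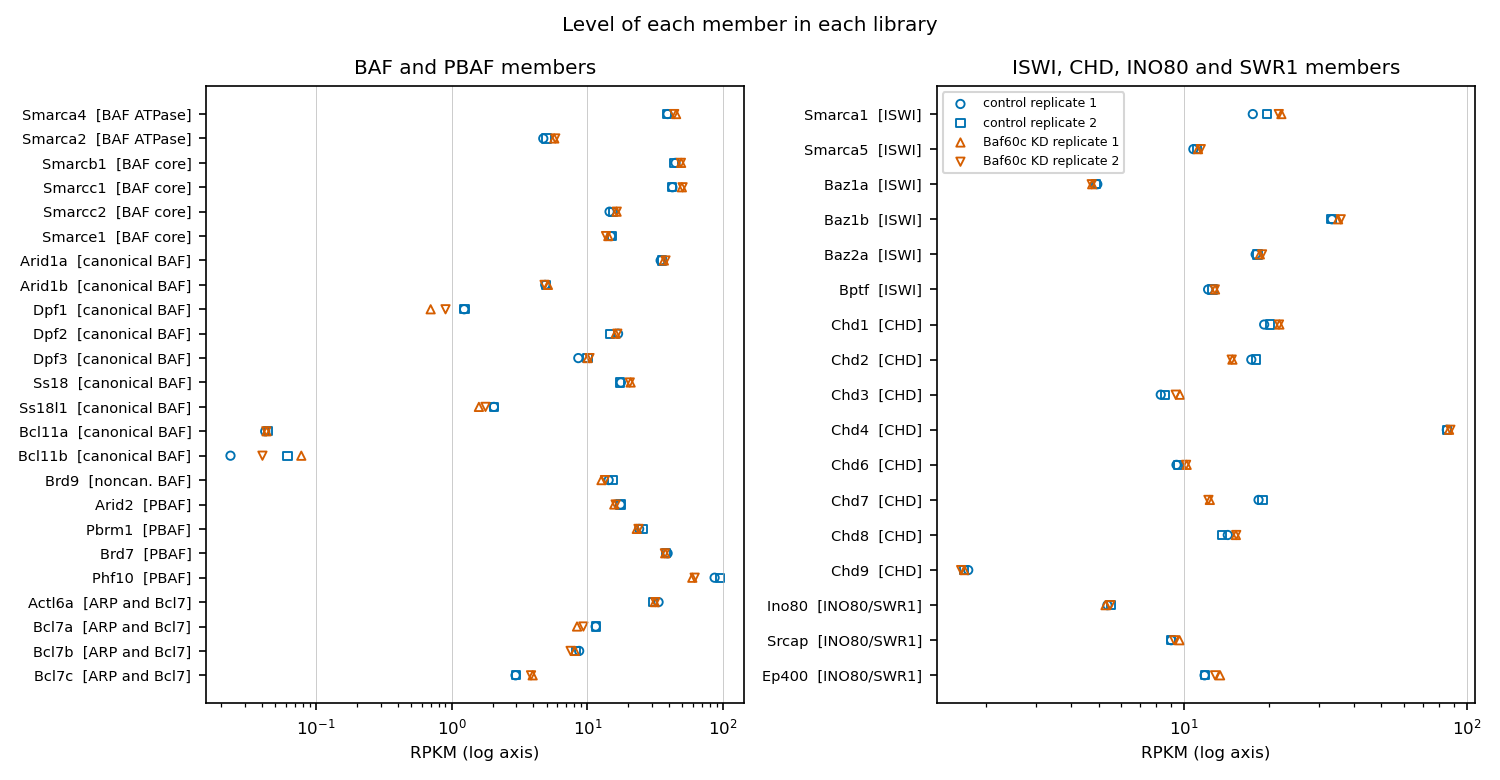
RPKM of each member in each of the 4 libraries, on a log axis, with circles and squares for the control replicates and triangles for the Baf60c KD replicates. Actl6b, with 0 reads in every library, is not drawn; Phf10 and Chd4 have the highest levels, and Bcl11a and Bcl11b lie below 0.1 RPKM in each library.

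On the log2(RPKM + 1) scale, Phf10 fell and Bcl7c rose the most among the BAF and PBAF members, and their promoters are printed for that reason. The RefSeq windows run from 250 bases before to 50 bases after the transcription start in the GRCm38.p6 build, and capitals mark CG dinucleotides. The Phf10 window (chr17:14961211-14961510, minus strand) holds 62 CG dinucleotides, the highest number among the members, and the Bcl7c window (chr7:127708717-127709016, minus strand) holds 40.
Phf10: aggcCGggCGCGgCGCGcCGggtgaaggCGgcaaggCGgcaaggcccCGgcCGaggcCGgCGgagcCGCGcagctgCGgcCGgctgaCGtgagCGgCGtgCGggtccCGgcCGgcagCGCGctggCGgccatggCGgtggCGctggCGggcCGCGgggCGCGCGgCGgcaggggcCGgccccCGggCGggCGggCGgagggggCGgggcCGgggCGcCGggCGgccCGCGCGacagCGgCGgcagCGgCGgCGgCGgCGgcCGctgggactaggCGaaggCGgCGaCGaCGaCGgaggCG
Bcl7c: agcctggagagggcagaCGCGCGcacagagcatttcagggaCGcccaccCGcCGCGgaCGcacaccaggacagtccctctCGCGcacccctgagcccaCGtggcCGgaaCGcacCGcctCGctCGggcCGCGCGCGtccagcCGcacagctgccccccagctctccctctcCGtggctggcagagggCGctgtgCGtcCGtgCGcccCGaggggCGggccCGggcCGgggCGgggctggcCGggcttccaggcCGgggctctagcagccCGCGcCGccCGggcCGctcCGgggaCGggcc

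Windows of this kind were found for 33 of the 42 members, 37 windows in all, with a median of 30 CG dinucleotides and a range from 1 to 62, beside a median of 7 over 32851 promoter windows. A search of both strands found the E-box CACGTG in 4 of the 33 members, Bcl7b, Bcl7c, Bptf and Pbrm1 (12.1%, beside 7.15% of all windows). The GATA letters AGATAA were found in 1, Chd4 (3.03%, beside 11.2% of all windows). The letters TNAAGTG for NKX2-5 (11.5% of all windows) and TAATGG for ISL1 (7.73%) were found in 0 members. These shares set members beside windows, and the member windows were richer in CG dinucleotides, so they are not a like comparison. Such a match describes the letters of the window and not the binding of a factor.

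The tested transcripts of both catalytic ATPases of the BAF complexes were called higher in Baf60c KD, beside 36.1% of all genes. Smarca4, which encodes Brg1 and lies on chr9:21420613-21508674 of the mm9 build, measured 39.0 and 38.7 RPKM in control and 45.0 and 43.6 RPKM in Baf60c KD. Both groups stood apart, and the level was 1.14-fold higher (log2 fold change 0.18, SE 0.034, limma adjusted p = 0.00134). It remained called under all 11 alternatives tried, among them median-ratio scaling (0.11).

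Smarca2, which encodes Brm and lies on chr19:26679650-26852811, was the lower of the pair at 4.73 and 5.00 RPKM in control and 5.70 and 5.80 RPKM in Baf60c KD. Again both knockdown libraries lay above both controls, by 1.18-fold (log2 fold change 0.20, SE 0.056, limma adjusted p = 0.0133). Leaving out Baf60c KD replicate 2 (adjusted p = 0.0653) ended the call, as did median-ratio scaling (adjusted p = 0.0727). The ratio of Smarca4 to Smarca2 was 8.24 and 7.74 in control and 7.90 and 7.52 in Baf60c KD, so that the ranges overlapped. On the log2 scale the ratio differed by −0.05 (exact permutation p = 0.667, two-sided, where 0.333 is the smallest that 2 libraries against 2 can give).

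The table lists Smarca2 by a long transcript of 5778 bases (NM_011416) and by a pair of short transcripts of 1951 bases each. Reads shared by transcripts of a gene are counted in each of its rows, so the rows are not independent. The short transcript NM_001347439 measured 6.66 and 6.97 RPKM in control and 8.89 and 9.04 RPKM in Baf60c KD. Its difference of 0.35 on the log2(RPKM + 1) scale was larger than the 0.20 of the long transcript, and the groups did not overlap in either.

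**Figure D3:**
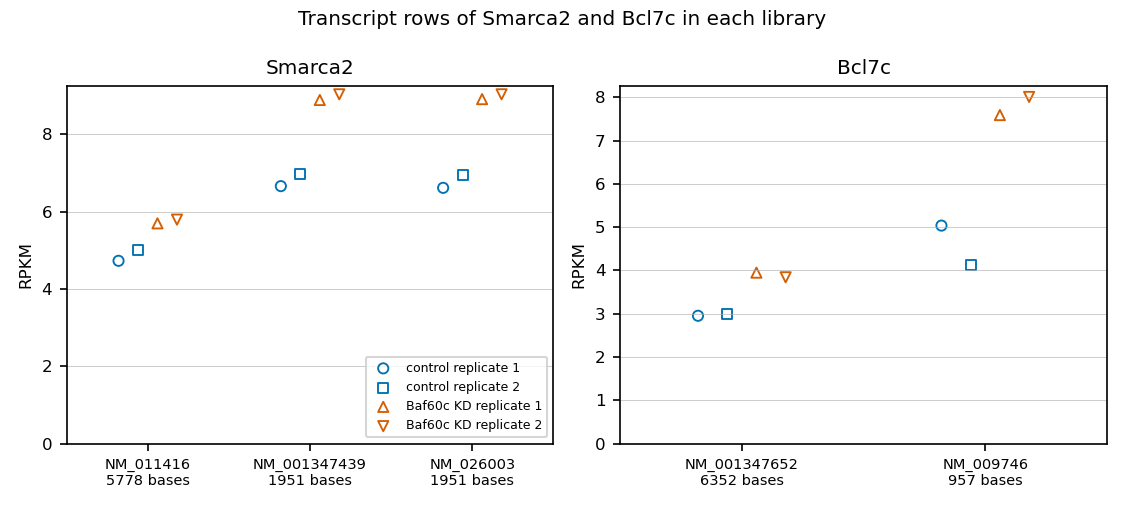
RPKM of the transcript rows of Smarca2 (left, 3 rows) and Bcl7c (right, 2 rows) in each library, with circles and squares for control and triangles for Baf60c KD. In both genes the short transcripts differ more between the groups than the long ones, by 0.35 and 0.36 against 0.20 on the log2(RPKM + 1) scale for Smarca2 and by 0.66 against 0.30 for Bcl7c.

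The core subunits, on which the other subunits assemble, had 3 of 4 genes called higher, beside 36.1% of all genes. Smarcc1 (BAF155), a scaffold of the complex, measured 42.3 and 42.1 RPKM in control and 49.6 and 50.3 RPKM in Baf60c KD, and its paralog Smarcc2 (BAF170) measured 14.6 and 15.4 against 16.4 and 16.5 RPKM. Neither gene overlapped between the groups, and the change was 0.24 for Smarcc1 (SE 0.031, limma adjusted p = 1.83e-04) and 0.13 for Smarcc2 (SE 0.043, adjusted p = 0.0314). Smarcb1 (BAF47), whose loss marks rhabdoid tumours, rose from 44.0 ± 0.801 to 48.9 ± 0.128 RPKM (SD, n = 2; log2 fold change 0.15, adjusted p = 0.00357).

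Smarce1 (BAF57), an HMG-domain subunit, was not called at 15.0 ± 0.183 against 13.99 ± 0.387 RPKM (log2 fold change −0.10, adjusted p = 0.0848). With median-ratio scaling, Smarcc1 alone of the core subunits remained higher, Smarcb1 (0.07, adjusted p = 0.0819) and Smarcc2 (0.05, adjusted p = 0.331) lost their calls and Smarce1 was called lower (−0.17). The call of Smarcc2 was also lost without control replicate 1 (limma adjusted p = 0.129), without Baf60c KD replicate 1 (0.0979) and without Baf60c KD replicate 2 (0.110). The Smarcc1 to Smarcc2 ratio was 2.91 and 2.74 in control and 3.03 and 3.06 in Baf60c KD, without overlap (0.11 on the log2 scale, exact permutation p = 0.333).

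Of the subunits listed here under canonical BAF, a label that does not mean they are exclusive to it, 7 of 9 were tested. The test called 1 higher and 1 lower, beside 36.1% and 18.2% of all genes. Ss18, known from its fusion with SSX genes in human synovial sarcoma, measured 17.6 and 17.3 RPKM in control and 20.8 and 20.5 RPKM in Baf60c KD. Its log2 fold change was 0.23 (SE 0.039, limma adjusted p = 8.44e-04), and it was called under all 11 alternatives. The paralog Ss18l1, known in neurons as CREST, measured 2.05 and 2.06 RPKM in control and 1.59 and 1.77 RPKM in Baf60c KD.

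The Ss18l1 groups did not overlap, and the difference of −0.19 missed the threshold (limma adjusted p = 0.0519), which it passed with median-ratio scaling (adjusted p = 0.0207) and with voom (adjusted p = 0.0191). The ratio of Ss18 to Ss18l1 was 8.63 and 8.42 in control and 13.1 and 11.6 in Baf60c KD. This difference of 0.53 on the log2 scale was the largest among the 7 paralog pairs with reads (exact permutation p = 0.333, the smallest possible). Expressed as a share of their summed RPKM, Ss18 made up 89.5% ± 0.162 in control and 92.5% ± 0.623 in Baf60c KD (SD, n = 2).

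Dpf1, Dpf2 and Dpf3 encode alternative PHD-finger subunits, of which Dpf1 is known from neurons and Dpf3 from heart and skeletal muscle. Dpf1 was low, with 1.24 RPKM in both control libraries and 0.700 and 0.901 RPKM in Baf60c KD, and fell by 0.32 on the log2(RPKM + 1) scale (SE 0.083, limma adjusted p = 0.00972). That scale compresses so low a gene: the ratio of mean RPKM was 1.55-fold lower, and voom on recovered reads gave a log2 fold change of −0.61. No value of either group entered the range of the other, although leaving out Baf60c KD replicate 1 ended the call (adjusted p = 0.0918).

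Dpf2 measured 16.8 and 14.7 RPKM in control and 16.1 and 16.6 RPKM in Baf60c KD. Dpf3 measured 8.57 and 9.99 RPKM in control and 10.0 and 10.4 RPKM in Baf60c KD. The Dpf2 ranges overlapped, those of Dpf3 were separated by a narrow margin, and neither gene was called (log2 fold changes 0.06 and 0.13, limma adjusted p = 0.453 and 0.134). Each depended on a single control library, since Dpf2 was called higher without control replicate 1 (0.15, adjusted p = 0.0216) and Dpf3 without control replicate 2 (0.23, adjusted p = 0.00524). The Dpf2 to Dpf3 ratio of 1.96 and 1.47 in control enclosed the 1.61 and 1.60 of Baf60c KD.

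Arid1a and Arid1b, the large DNA-binding subunits that are exclusive to canonical BAF, were not called. Arid1a measured 34.6 and 35.3 RPKM in control and 36.6 and 37.6 RPKM in Baf60c KD, without overlap (log2 fold change 0.08, limma adjusted p = 0.0669). Arid1b measured 4.89 and 4.95 RPKM in control and 5.12 and 4.84 RPKM in Baf60c KD, with overlap (0.01, 95% interval −0.12 to 0.14), and the ratio of both was 7.08 and 7.13 in control and 7.15 and 7.78 in Baf60c KD. Bcl11a and Bcl11b, zinc-finger subunits of neural and lymphoid BAF, had 6 to 8 and 4 to 13 reads per library and could not be compared.

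Brd9, the bromodomain subunit of noncanonical BAF, was lower in Baf60c KD. It measured 14.3 and 15.3 RPKM in control and 12.7 and 13.5 RPKM in Baf60c KD, without overlap (log2 fold change −0.17, SE 0.050, limma adjusted p = 0.0170). Leaving out Baf60c KD replicate 1 (adjusted p = 0.104) or control replicate 2 (adjusted p = 0.0761) ended the call.

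None of the 4 PBAF subunits was higher in Baf60c KD, and 2 were called lower, beside 18.2% of all genes. Phf10 (BAF45A), a PHD-finger subunit of PBAF known from proliferating neural progenitors, lies on chr17:15081999-15129820 of the mm9 build, on the minus strand. It measured 86.5 and 94.3 RPKM in control and 59.3 and 61.7 RPKM in Baf60c KD. The groups lay well apart, and at 1.496-fold lower (log2 fold change −0.57, SE 0.043, limma adjusted p = 5.09e-06) this was the largest change among the 39 members on the log2(RPKM + 1) scale. As a ratio of mean RPKM, Dpf1 (1.55-fold) and Chd7 (1.52-fold) were further below control. Across the 11 alternatives its log2 fold change stayed between −0.65 and −0.51, and the call was kept.

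A stretch of 485 exon bases of Phf10 (9.68% of the gene model) is shared with 1600012H06Rik on the opposite strand. That gene measured 10.8 and 10.4 RPKM in control and 10.0 and 10.9 RPKM in Baf60c KD, with overlap between the groups.

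Arid2, the ARID subunit exclusive to PBAF, measured 17.5 and 17.6 RPKM in control and 15.8 and 16.1 RPKM in Baf60c KD. Its change of −0.13 (SE 0.040, limma adjusted p = 0.0216) lost the call without Baf60c KD replicate 1 (adjusted p = 0.146) and without Baf60c KD replicate 2 (adjusted p = 0.0570). Pbrm1 (polybromo) and Brd7, both with bromodomains that bind acetylated histones, were not called, at 24.8 ± 1.02 against 23.5 ± 0.486 RPKM and at 38.5 ± 0.639 against 37.3 ± 0.138 RPKM (SD, n = 2). In all 4 PBAF genes both Baf60c KD libraries lay below both controls, as in 27.8% of all genes tested. With median-ratio scaling all 4 were called lower, beside 25.4% of all genes, Pbrm1 at −0.15 (adjusted p = 0.0157) and Brd7 at −0.12 (adjusted p = 0.0127), and Pbrm1 was also called lower without control replicate 1 (adjusted p = 0.0420) and with voom (adjusted p = 0.0233).

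Grouping the subunits by the position they fill, which was done after their values were seen, showed how paralog proportions stood. Phf10 made up 77.5% ± 1.42 of the summed RPKM of the PHD-finger genes Phf10, Dpf1, Dpf2 and Dpf3 in control and 68.8% ± 0.0516 in Baf60c KD (SD, n = 2). The share of Dpf2 stood at 13.5% ± 1.90 in control and 18.6% ± 0.141 in Baf60c KD, and that of Dpf3 at 7.94% ± 0.520 and 11.6% ± 0.0477. The summed RPKM of these genes was 113.1 and 120.2 in control and 86.1 and 89.5 in Baf60c KD. Of the 4 genes, Phf10 and Dpf1 passed the test, both lower, beside 18.2% of all genes called lower.

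Among the ARID genes the sum was nearly the same, at 57.0 and 57.8 RPKM in control and 57.5 and 58.6 RPKM in Baf60c KD, with overlap. Within it, the PBAF gene Arid2 made up 30.6% ± 0.216 in control and 27.5% ± 0.0781 in Baf60c KD, and Arid1a 60.9% ± 0.223 and 63.9% ± 0.382. The share of Arid1b was 8.57% and 8.58%.

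**Figure D4:**
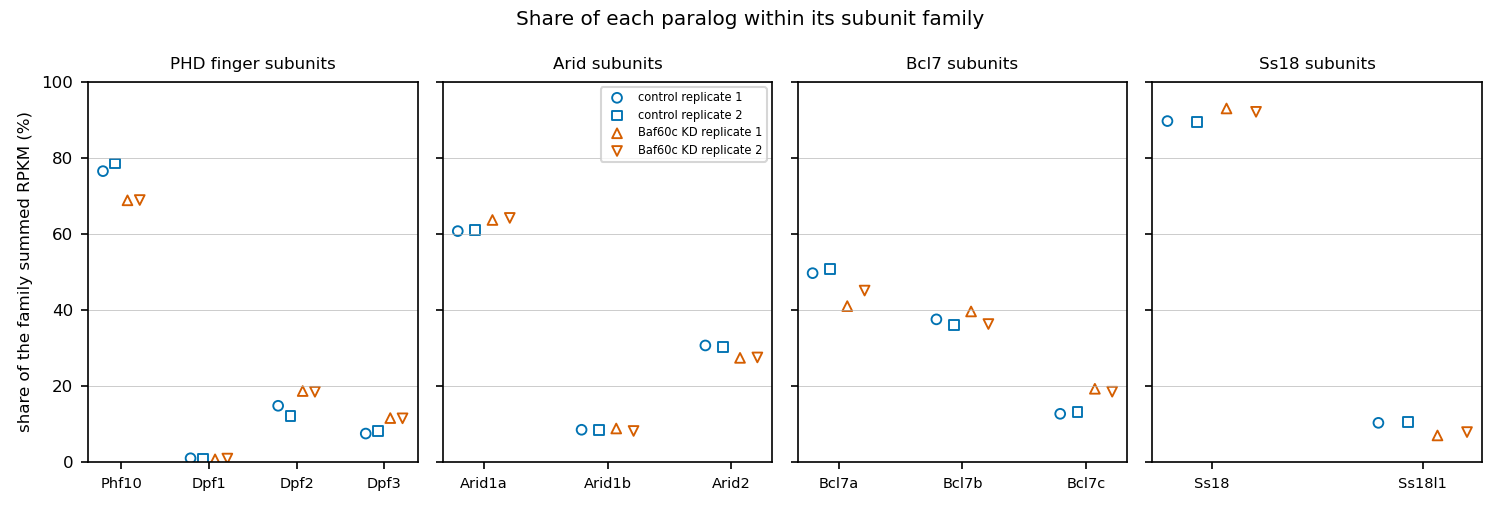
Share of each paralog in the summed RPKM of its subunit family (percent) in each library, for the PHD-finger, ARID, Bcl7 and Ss18 families, with circles and squares for control and triangles for Baf60c KD. Phf10 goes from 77.5% to 68.8% and Bcl7a from 50.2% to 43.1% of their families, while Arid1b stays at 8.6%.

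Of the actin-related and Bcl7 subunits, 4 of 5 were tested, and the Bcl7 paralogs diverged. Bcl7a, first known from a lymphoma rearrangement, lies on chr5:123793843-123824091 of the mm9 build and measured 11.5 RPKM in both control libraries and 8.39 and 9.34 RPKM in Baf60c KD. Bcl7c lies on chr7:134806867-134852447 and measured 2.95 and 2.99 RPKM in control and 3.95 and 3.84 RPKM in Baf60c KD. Bcl7a fell by 0.35 (SE 0.056, limma adjusted p = 6.40e-04) and Bcl7c rose by 0.30 (SE 0.061, adjusted p = 0.00252), neither with overlap, and both were called under all 11 alternatives.

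Bcl7b measured 8.70 and 8.20 RPKM in control and 8.10 and 7.52 RPKM in Baf60c KD and was not called (−0.10, limma adjusted p = 0.152), although it was called lower with median-ratio scaling (−0.17, adjusted p = 0.0270). Of the summed RPKM of the 3 genes, Bcl7a made up 50.2% ± 0.734 in control and 43.1% ± 2.88 in Baf60c KD, and Bcl7c 13.0% ± 0.287 and 18.9% ± 0.544 (SD, n = 2). A short Bcl7c transcript of 957 bases (NM_009746) measured 5.04 and 4.12 RPKM in control and 7.59 and 8.01 RPKM in Baf60c KD. Its difference of 0.66 on the log2(RPKM + 1) scale exceeded the 0.30 of the transcript of 6352 bases that was tested.

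Actl6a (BAF53A), the actin-related subunit of proliferating cells, measured 33.4 and 30.4 RPKM in control and 31.4 and 31.6 RPKM in Baf60c KD, with overlap (−0.02, 95% interval −0.12 to 0.09). Its neuronal paralog Actl6b (BAF53B) had 0 reads in every library. Of the exon bases of Actl6a, 16.2% are shared with Mrpl47 on the opposite strand.

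Among the 17 ISWI, CHD, INO80 and SWR1 members, all of which were tested, 5 were called higher and 2 lower (41.2%, beside 54.3% of all genes, 36.1% higher and 18.2% lower). Chd7, which opens chromatin at enhancers in progenitor cells, lies on chr4:8617553-8794806 of the mm9 build. It measured 18.4 and 19.0 RPKM in control and 12.4 and 12.2 RPKM in Baf60c KD. The replicates lay close together and the groups well apart, with a 1.52-fold lower level in Baf60c KD (log2 fold change −0.57, SE 0.042, limma adjusted p = 3.65e-06). Under the 11 alternatives the log2 fold change ranged from −0.64 to −0.54.

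Chd2, a remodeller linked in humans to epilepsy, was the other CHD gene that was called lower. It measured 17.3 and 18.0 RPKM in control and 14.9 and 14.8 RPKM in Baf60c KD, without overlap (log2 fold change −0.24, SE 0.041, limma adjusted p = 0.001004), and was called under all 11 alternatives. Chd1, which binds the histone mark of active promoters, measured 19.3 and 20.2 RPKM in control and 21.8 and 21.7 RPKM in Baf60c KD. Both Chd1 knockdown libraries lay above both controls (0.14, adjusted p = 0.0173).

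Chd3 and Chd4 are the alternative ATPases of NuRD, a complex that couples remodelling to histone deacetylation. Chd3 measured 8.29 and 8.57 RPKM in control and 9.70 and 9.37 RPKM in Baf60c KD and was called higher (0.16, SE 0.049, limma adjusted p = 0.0202). Chd4 measured 85.2 and 85.4 RPKM in control and 86.7 and 87.7 RPKM in Baf60c KD and was not called (0.03, 95% interval −0.03 to 0.09). The Chd4 to Chd3 ratio was 10.3 and 9.98 in control and 8.94 and 9.35 in Baf60c KD, without overlap (−0.15 on the log2 scale, exact permutation p = 0.333).

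Of the remaining CHD genes, Chd8, linked in humans to autism, was called higher at 13.99 ± 0.454 against 15.3 ± 0.0323 RPKM (SD, n = 2; 0.12, limma adjusted p = 0.0375). Chd6 at 9.49 ± 0.0796 against 10.2 ± 0.0342 RPKM (0.10, adjusted p = 0.0994) and Chd9 at 1.70 ± 0.0399 against 1.65 ± 0.0304 RPKM (−0.03, adjusted p = 0.783) were not called. The calls of Chd1, Chd3 and Chd8 were lost with median-ratio scaling (adjusted p = 0.241, 0.158 and 0.360) and without Baf60c KD replicate 1 (0.0652, 0.135 and 0.122). Without control replicate 1 those of Chd1 (0.0683) and Chd3 (0.0599) were lost, without Baf60c KD replicate 2 those of Chd1 (0.0576) and Chd8 (0.137), and without control replicate 2 that of Chd8 (0.142).

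ISWI remodellers space nucleosomes and contain Smarca5 (SNF2H) or Smarca1 (SNF2L) as their ATPase. Smarca1 measured 17.5 and 19.7 RPKM in control and 22.1 and 21.7 RPKM in Baf60c KD, and was the only ISWI member called (log2 fold change 0.23, SE 0.053, limma adjusted p = 0.00538). It was called under all 11 alternatives. Smarca5 measured 10.8 and 11.1 RPKM in control and 11.2 and 11.5 RPKM in Baf60c KD and was not called (0.05, 95% interval −0.06 to 0.15).

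The Smarca5 to Smarca1 ratio was 0.616 and 0.566 in control and 0.507 and 0.530 in Baf60c KD, without overlap (−0.19 on the log2 scale, exact permutation p = 0.333). Of the partner subunits, which target ISWI to chromatin, Baz1a, Baz1b, Baz2a and Bptf were not called, with log2 fold changes from −0.05 for Baz1a to 0.09 for Baz1b (limma adjusted p = 0.516 and 0.0529). Baz1b and Bptf had control levels of 33.4 ± 0.0824 and 12.4 ± 0.306 RPKM, and Baz2a and Baz1a of 18.1 ± 0.204 and 4.92 ± 0.0387 RPKM (SD, n = 2).

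The ATPases of INO80 and SWR1-type complexes exchange or place the histone variant H2A.Z. Ep400 measured 11.8 and 11.9 RPKM in control and 13.4 and 12.9 RPKM in Baf60c KD, without overlap (log2 fold change 0.14, SE 0.045, limma adjusted p = 0.0237). Neither the fit that left out Baf60c KD replicate 1 (adjusted p = 0.183) nor median-ratio scaling (adjusted p = 0.228) kept the call. Ino80 at 5.45 ± 0.109 against 5.395 ± 0.147 RPKM and Srcap at 9.03 ± 0.00506 against 9.46 ± 0.291 RPKM were not called (−0.01 and 0.06).

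A list of 59 other remodeller genes, all of which were tested, set these values beside their complexes. The test called 17 higher and 6 lower (39.0%, beside 54.3% of all genes), and the median log2 fold change was 0.05. The largest higher values were those of Hells, a DNA methylation-linked ATPase of dividing cells (0.64), Rad54l, a recombination ATPase (0.54), the BAF60a gene Smarcd1 (0.51) and Ino80e (0.40). Chd5 was low, at 0.675 and 0.619 RPKM in control and 0.420 and 0.390 RPKM in Baf60c KD, and reached the filter only through control. Its mean RPKM was 1.60-fold lower, and voom on recovered reads gave a log2 fold change of −0.68. On the log2(RPKM + 1) scale, the lowest values after Smarcd3 were those of Chd5 (−0.23), Nfrkb (−0.18) and Btaf1 (−0.17). The latter 3 lost their calls without Baf60c KD replicate 2 (limma adjusted p = 0.165, 0.166 and 0.0821), Chd5 and Nfrkb without control replicate 1 (0.0932 and 0.0747) and Chd5 without Baf60c KD replicate 1 (0.108).

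Of the BAF60 genes, Smarcd1 and Smarcd2 were higher in Baf60c KD, whereas Smarcd3, the knockdown target, was lower. Smarcd1 measured 22.6 and 21.4 RPKM in control and 31.2 and 32.3 RPKM in Baf60c KD. Smarcd2 measured 13.4 and 12.2 against 15.6 and 16.5 RPKM (log2 fold change 0.30). Neither Smarcd1 nor Smarcd2 overlapped between the groups. By partner group, the NuRD partners had 4 higher and 1 lower of 12, the INO80 and SWR1 partners 4 higher and 1 lower of 18, the ISWI partners 2 higher and 1 lower of 5 and the TIP60 partners 0 of 6 called by limma, beside 36.1% higher and 18.2% lower of all genes. Of the TIP60 partners, Epc1 had an unadjusted p under 0.05 and was called lower with voom (adjusted p = 0.0230) and with median-ratio scaling (adjusted p = 0.0227).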

How the data were processed

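RNA-Seq values of 4 libraries were used, and groups and replicate numbers came from the labels. The authors mapped reads from a stranded mRNA kit with STAR to mm9, counted them over RefSeq exons with HOMER on both strands, and deposited RPKM computed with edgeR, versions not given in the sources used here. The authors' DESeq2 fold changes, p-values and mean signal in the same table were not used. The table of 35707 rows stacks 31507 and 4200 rows that were normalised separately, and only the former were fitted. RPKM times length and library total gave whole reads for 100% of values (tolerance 0.001). The summed reads were 23233027 and 22064092 in control and 22714412 and 30398452 in Baf60c KD, and a read can be counted in several transcripts of a gene. Replicates differed by more than counting noise (chi-square per degree of freedom 1.52 in control and 1.17 in Baf60c KD).

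One transcript per gene was kept, the one with most reads. Fits used limma 3.58.1 (R 4.3.3) on log2(RPKM + 1) with a trended, robust variance prior, a mean of at least 0.5 RPKM and Benjamini-Hochberg adjustment over 11371 genes, called at 0.05, two-sided. The log2(RPKM + 1) scale understates changes of low genes. The script was tested on simulated data. The 11 alternatives were a pseudocount of 0.1, no filter, a filter of 1 RPKM, median-ratio factors, voom on recovered reads, the longest transcript, the replicate block and leaving out each library. The members and gene lists were chosen with earlier results of these data known. All members are named, and library values are given for the BAF ATPases, the 4 largest called changes each way in BAF and PBAF and in the other complexes, paralog pairs and members below the filter. Of the other remodeller genes the 4 largest called changes each way are named. Positions are from GENCODE vM1 (mm9) and promoters from RefSeq.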

Additional observations from a re-analysis of the deposited data

How the results depend on the processing

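The direction and call of 9 members, namely Smarca4, Smarcc1, Ss18, Phf10, Bcl7a, Bcl7c, Smarca1, Chd2 and Chd7, held in all 11 alternatives. With median-ratio factors the members called were 5 higher and 12 lower and their median log2 fold change −0.0255. All genes were then 25.8% higher and 25.4% lower, with a median of 0.002. The other remodeller genes called lower numbered 12 with median-ratio factors and 11 with voom. Members at the study's thresholds numbered 2 with median-ratio factors, with a pseudocount of 0.1 and with voom, and 0 to 2 when a library was left out. Leaving out a library gave 11 to 18 members called, 7 to 12 higher and 4 to 8 lower, a median of 0.0289 to 0.0588 and 3 to 6 other remodeller genes lower. The difference of the Dpf2 to Dpf3 ratio ran from −0.29 to 0.13 and turned without control replicate 1 (0.13). No called gene turned. With median-ratio factors, the values of Arid1b (−0.0510), Baz2a (−0.0260), Bptf (−0.0216), Chd4 (−0.0460), Dpf2 (−0.0168), Smarca5 (−0.0255) and Srcap (−0.0107) did. Leaving out a library also turned some, with ranges from −0.0836 to 0.0494 for Actl6a, −0.0200 to 0.0478 for Arid1b, −0.0373 to 0.150 for Dpf2 and −0.0358 to 0.0112 for Ino80. The cause was not tested. Voom called 24 of 39 members, beside 6685 of 11371 genes, and among them also Arid1a, Ss18l1, Pbrm1, Baz1b and Chd6. Without a filter Smarcc2 (limma adjusted p = 0.0534) and Chd8 (0.0577) were lost.

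With the replicate number as a block, the same 19 members and 6166 of all genes were called. The numbers were not taken to pair the samples, since the replicate differences of the groups correlated at r = 0.02 across 11371 genes. With 2 libraries per group, the spread is poorly known, and Bcl11a, Bcl11b and Actl6b had too few reads to compare. Of the members, 10 share exon bases with another gene, 4 of them over 5%.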
